A study of Mus musculus with 42 samples.

Results

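The comparison was between lungs of mice given benzo(k)fluoranthene (BkF) at the medium dose and lungs of mice given the vehicle. It used 8 of the 42 arrays of the series, chosen by tissue and by the dose group in the sample labels. The medium-dose group (D2) held lungs of 4 mice, numbered 11, 12, 13 and 15, which received 50 mg/kg-bw/day of BkF in olive oil by oral gavage for 28 days. The control group (D0) held lungs of 4 mice, numbered 1, 2, 3 and 4, which received olive oil alone. All were adult males of the Muta™Mouse, a transgenic strain that carries bacterial reporter genes for mutation assays, so that the transgene is common to both groups. They were about 11 weeks old at the start, and tissue was taken 72 hours after the last dose. Lungs of 3 low-dose (D1, 25 mg/kg-bw/day) and 4 high-dose (D3, 100 mg/kg-bw/day) mice entered the same statistical fit and are cited for levels where they help to place the D2 values. Each sample is a slice of the right lung of 1 mouse. The study's methods mention deaths in the BkF experiment from accidental puncture of the lung at gavage, with the vehicle group also below its planned size. In whole-tissue RNA, fewer cells of a type and less RNA per cell cannot be told apart.

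BkF is a polycyclic aromatic hydrocarbon with several fused benzene rings. Such compounds bind the aryl hydrocarbon receptor (AhR), a transcription factor of the cytoplasm, which then enters the nucleus, pairs with Arnt and binds xenobiotic response elements, short DNA sites with the core GCGTG. The best-known targets are the cytochrome P450 enzymes Cyp1a1, Cyp1a2 and Cyp1b1, which oxidise the hydrocarbons to reactive or excretable products, and the feedback repressors Ahrr and Tiparp. Nqo1, a quinone reductase, answers both to AhR and to the oxidative stress factor Nrf2. In lung, Cyp1 enzymes are known for strong induction by inhaled or ingested hydrocarbons, with Cyp1a1 prominent in endothelium and epithelium.

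The DNA just before the start of the targets is shown to relate the response to the receptor's core site. The 250 bases before the RefSeq start (build GRCm38.p6) are given in the direction of the gene for the 5 AhR targets with the widest differences in the data below, at chr9:57697363-57697612, plus strand for Cyp1a1, at chr17:79715062-79715311, minus strand for Cyp1b1, at chr13:74292332-74292581, minus strand for Ahrr, at chr3:65528197-65528446, plus strand for Tiparp and at chr8:107403206-107403455, minus strand for Nqo1. Capitals mark each GCGTG or its complement CACGC.
Cyp1a1: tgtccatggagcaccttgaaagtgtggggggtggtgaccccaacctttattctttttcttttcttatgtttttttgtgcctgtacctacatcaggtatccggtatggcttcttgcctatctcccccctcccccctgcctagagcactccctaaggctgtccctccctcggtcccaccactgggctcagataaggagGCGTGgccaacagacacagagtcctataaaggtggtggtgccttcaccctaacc
Cyp1b1: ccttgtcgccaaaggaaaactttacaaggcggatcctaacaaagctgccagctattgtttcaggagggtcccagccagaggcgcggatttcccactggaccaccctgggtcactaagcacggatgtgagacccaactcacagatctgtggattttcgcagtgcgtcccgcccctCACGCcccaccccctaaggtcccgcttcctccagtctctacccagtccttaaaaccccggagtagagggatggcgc
Ahrr: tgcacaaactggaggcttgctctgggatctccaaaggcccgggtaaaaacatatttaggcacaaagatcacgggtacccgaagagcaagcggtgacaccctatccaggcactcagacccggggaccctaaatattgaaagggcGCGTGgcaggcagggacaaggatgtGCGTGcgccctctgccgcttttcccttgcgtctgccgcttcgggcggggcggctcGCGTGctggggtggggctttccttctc
Tiparp: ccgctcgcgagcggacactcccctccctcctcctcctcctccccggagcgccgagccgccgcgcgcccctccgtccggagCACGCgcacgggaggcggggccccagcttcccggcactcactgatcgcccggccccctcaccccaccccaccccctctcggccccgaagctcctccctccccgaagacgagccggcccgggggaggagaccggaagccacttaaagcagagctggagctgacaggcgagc
Nqo1: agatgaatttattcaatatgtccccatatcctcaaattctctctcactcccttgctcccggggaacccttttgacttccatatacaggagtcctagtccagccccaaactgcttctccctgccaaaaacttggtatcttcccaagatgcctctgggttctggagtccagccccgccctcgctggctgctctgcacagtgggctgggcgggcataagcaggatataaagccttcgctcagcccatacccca
Ahrr held 3 copies of the core in this window and Cyp1a1, Cyp1b1 and Tiparp held 1 each. Nqo1 held none, which says only that these letters are not in this window. Among the 10 AhR targets of the list described below that have a window in the table, 5 held the core. The core is short and common, and 28.2% of all 32851 windows of this length held it, or 30.9% of 27025 genes. With the genes called below added to the AhR targets, 6 of 17 genes with a window held it (35.3%).

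Levels are given as log2 ratios of lung RNA over a universal mouse reference RNA on the same array, normalised by loess, and changes are D2 minus D0 on that scale, so that a change of 1 is a 2-fold difference. The reference is pooled from cell lines, and a level compares lungs with each other for 1 gene but not 1 gene with another. The lungs lay on 4 slides, each with 1 D0 and 1 D2 lung, and slide was a block in the fit. All D0 lungs lay in column 1 of their slide and all D2 lungs in column 3, so that position on the slide and dose cannot be told apart. Between 23291 and 33382 probes were well above background per array, with the lowest numbers on the slide of mice 4 and 13. Surfactant and secretory markers of lung were high in all groups, and the markers of alveolar type 2 cells had a median change of -0.07 over 10 genes, or -0.01 without mouse 12.

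One D2 lung stood apart. In the lung of mouse 12, the score of skeletal muscle markers, which is the mean over the tested markers of each log2 ratio minus its median over the 15 lungs, was 5.26. The scores were -0.15, -0.06 and 0.01 in the other D2 lungs and between -0.14 and 0.21 in the D0 lungs. Of the 14 muscle markers 10 were tested, and the other 4 were too dim on most lungs to be kept. Markers of stratified epithelium (Krt5, Krt13, Krt14 and Sprr1a were tested) were high in the same lung, with a score of 3.34 against -0.39 to 0.08 in the other D2 lungs. Its scores were also the highest of all D2 lungs for monocytes and macrophages (2.15), brown fat (2.59) and white fat (1.75), and the lowest for B cells (-1.12), endothelium (-0.61) and alveolar type 1 cells (-0.69). The lung of mouse 15 was the next in white fat (1.40) and brown fat (1.096) and highest in heart muscle markers (1.37). Results are therefore given with and without mouse 12, and the part of the foreign tissue in each difference was not tested.

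**Figure D1:**
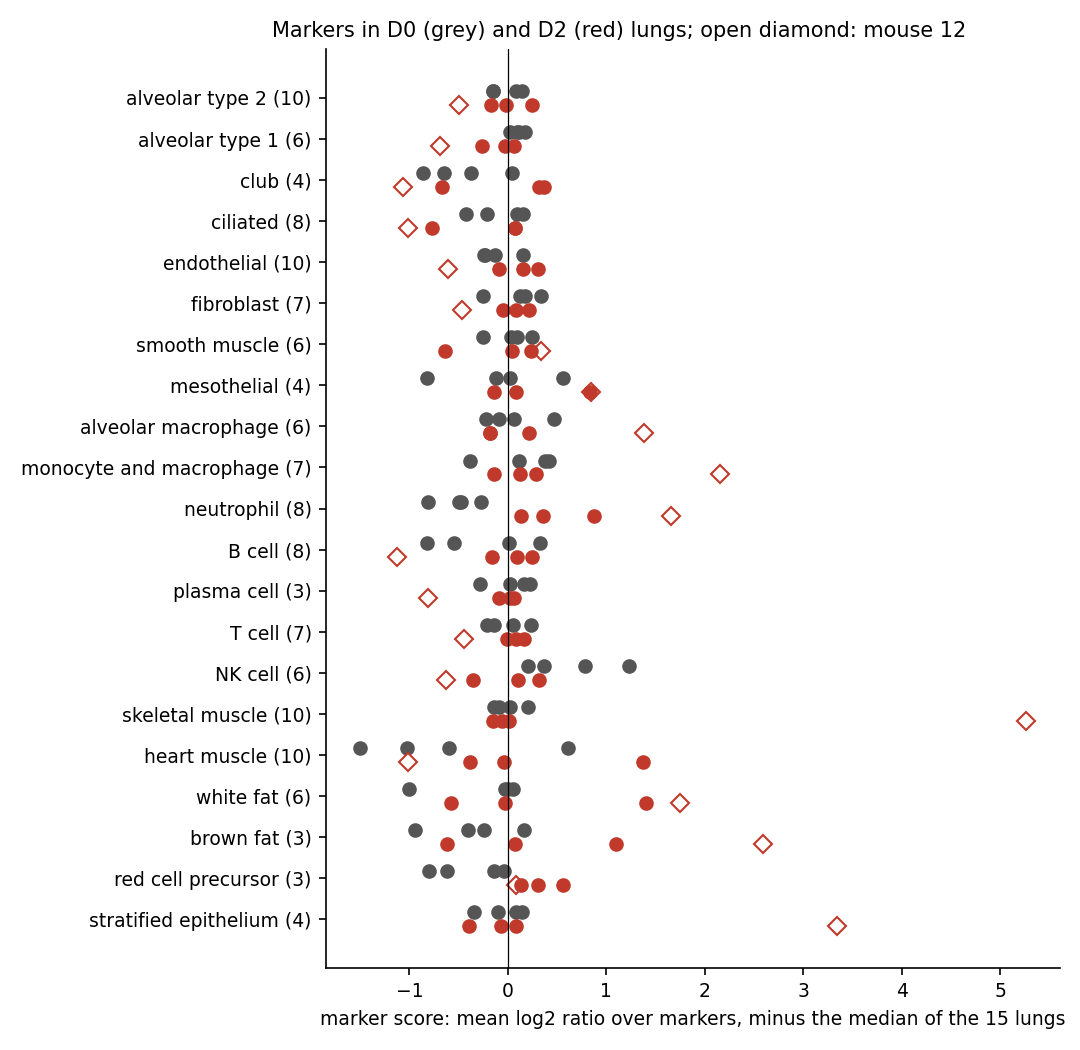
Marker scores (horizontal axis, log2 units relative to the median of the 15 lungs) of the cell and tissue marker lists with more than 1 tested gene, with the number of tested genes in brackets. Grey points are D0 lungs, red points D2 lungs and the open diamond D2 mouse 12, which lies at 5.26 for skeletal muscle and 3.34 for stratified epithelium. The D0 and D2 points of the neutrophil and red cell precursor lists do not overlap.

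At the D2 dose a small set of genes passed the test, led by AhR targets. In the limma fit of all lungs, calls needed at least 1.5-fold and an adjusted p no higher than 0.05. Of 32697 probes tested 11 were called, which is 0.0336%. The 6 that rose (0.0184%) were Cyp1a1, Cyp1b1, Ahrr, Nqo1, the glucose transporter Slc2a3 and a probe without a gene name here (A_66_P115580). The 5 that fell (0.0153%) were Grp, Slc5a12, Gm14207, Map2 and Klra7. With only the 8 D0 and D2 lungs in the fit, 3 probes were called higher (Cyp1a1, Cyp1b1 and Ahrr) and 0 lower, and with no slide block 4 higher and 1 lower (Grp). Without mouse 12 the count was 15 (0.0459%), of which 8 rose (0.0245%) and 7 fell (0.0214%), and 10 of the 11 calls were kept, the exception being Klra7. At an unadjusted p of at most 0.05 there were 2420 probes (7.4%), 1121 higher (3.43%) and 1299 lower (3.97%) in D2. The count of calls depended on single lungs. It was 0 without D0 mouse 1, 2 or 3 or D2 mouse 11 or 13, 1 without D0 mouse 4 and 13 without D2 mouse 15, with 1685 to 3003 probes at an unadjusted p under 0.05 in those 5 fits with no call. Over the 8 fits that each left out 1 lung the change of Cyp1a1 lay between 5.97 and 6.79, that of Cyp1b1 between 4.96 and 6.01 and that of Ahrr between 3.90 and 4.41. For Ahrr these are fitted values without an exact size, because it was well above background in 0 of 4 D0 lungs. With slide as a random block 12 probes were called, of which 7 were among the 11, and Nqo1, Gm14207, Map2 and Klra7 lost their calls.

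Cyp1a1 had the largest change of all probes tested. Its log2 ratios were 3.29, 2.35, 2.09 and 2.96 in D0 mice 1, 2, 3 and 4 and 9.14, 8.46, 9.57 and 8.66 in D2 mice 11, 12, 13 and 15. Every D2 lung lay more than 5 log2 units above every D0 lung, and mouse 12 was the lowest of the D2 group. The change was 6.28 ± 0.77 (SE), or 78.0-fold, with an adjusted p of 0.026, and 6.69 without mouse 12. With the ratios of the scanner software it was 4.05 and not called (adjusted p = 0.33). Within the 4 slides the difference ran from 5.85 to 6.61.

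Cyp1b1, which metabolises hydrocarbons outside the liver above all, was below the reference in all D0 lungs and above it in all D2 lungs. Its log2 ratios were -1.93, -2.64, -2.01 and -1.42 in D0 mice 1, 2, 3 and 4. They were 4.18, 3.60, 4.22 and 2.00 in D2 mice 11, 12, 13 and 15. Mouse 15 was well below the other D2 lungs for this gene. The change was 5.50 ± 0.72 (SE), or 45.3-fold, with an adjusted p of 0.026.

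Ahrr, the repressor that competes with AhR for Arnt, was not well above background in any D0 lung and was above it in all 4 D2 lungs. The probe read -0.65, -0.74, -0.93 and -0.25 in D0 mice 1, 2, 3 and 4 and 4.02, 3.42, 3.97 and 2.64 in D2 mice 11, 12, 13 and 15. The D2 level was at least 16.8-fold higher, computed from the sample channel against the lowest signal well above background, with an adjusted p of 0.026 in the fit. As for Cyp1b1, mouse 15 had the lowest D2 value. A second, dimmer probe of Ahrr was above background in 0 of 4 D0 lungs and 1 of 4 D2 lungs and had a change of 0.43, with an adjusted p of 0.68. The change of Ahrr was 2.29 as the mean of both probes and 6.47 with the background-subtracted ratios of the scanner software, both called.

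Nqo1 rose by 1.41 ± 0.19 (SE), or 2.66-fold, with an adjusted p of 0.026. Its log2 ratios were -1.11, -1.31, -1.69 and -1.08 in D0 mice 1, 2, 3 and 4 and 0.15, 0.87, 0.27 and -0.83 in D2 mice 11, 12, 13 and 15. All D2 values were above all D0 values, and mouse 12 was the highest and mouse 15 the lowest of the D2 group. Slc2a3, a high-affinity glucose transporter of neurons and blood cells, rose by 0.68 ± 0.09 (SE), from between -1.02 and -0.74 in D0 to between -0.45 and -0.00 in D2, with an adjusted p of 0.032. The unnamed probe rose by 2.31 ± 0.30 (SE), with D0 values from -0.39 to 0.22 and D2 values from 1.85 to 2.63. It was well above background in only 2 of 4 D0 lungs, so that its D0 level is close to the detection limit.

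Of the 12 genes on the AhR target list 11 were tested, and Cyp1a2 was too dim in lung. Of these, 4 were called higher and 0 lower, all 4 D2 lungs lay above all 4 D0 lungs for 6 and below for 0, and the median change was 0.68. Over all 32697 probes such complete separation was seen for 2.33% (1.2% upward and 1.13% downward), and without mouse 12 for 5.18% (2.85% upward and 2.33% downward), and the median change of the 14970 named genes was -0.01. Without mouse 12 the median of the list was 0.38. Tiparp, which shuts AhR signalling off by ADP-ribosylation, read between -0.92 and -0.77 in D0 lungs and 0.19, 0.32, 0.63 and -0.47 in D2 mice 11, 12, 13 and 15. The groups did not overlap, yet the change of 1.01 ± 0.26 (SE) had an adjusted p of 0.35, and its second probe gave 1.00.

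Conjugating and oxidising members of the AhR list had smaller changes than the Cyp1 enzymes. The glucuronosyltransferases Ugt1a6a and Ugt1a6b, which share sequence and may share probe signal, had changes of 0.33 and 0.61, with adjusted p of 0.50 and 0.56, and of 0.25 and 0.38 without mouse 12. Across the 18 alternative settings the change of Ugt1a6a ranged from 0.25 to 0.74. The aldehyde dehydrogenase Aldh3a1 had a change of 0.65 (adjusted p = 0.72), and of 0.27 without mouse 12, whose value of 2.20 compares with 0.42 to 1.07 in the other D2 lungs. The near-identical glutathione transferases Gsta1 and Gsta2 had changes of 0.68 and 0.38, or 0.35 and 0.30 without mouse 12, and the P450 enzyme Cyp2s1 of -0.08, or 0.03. None of these passed the test, and the D2 and D0 lungs overlapped for all but Ugt1a6a.

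**Figure D2:**
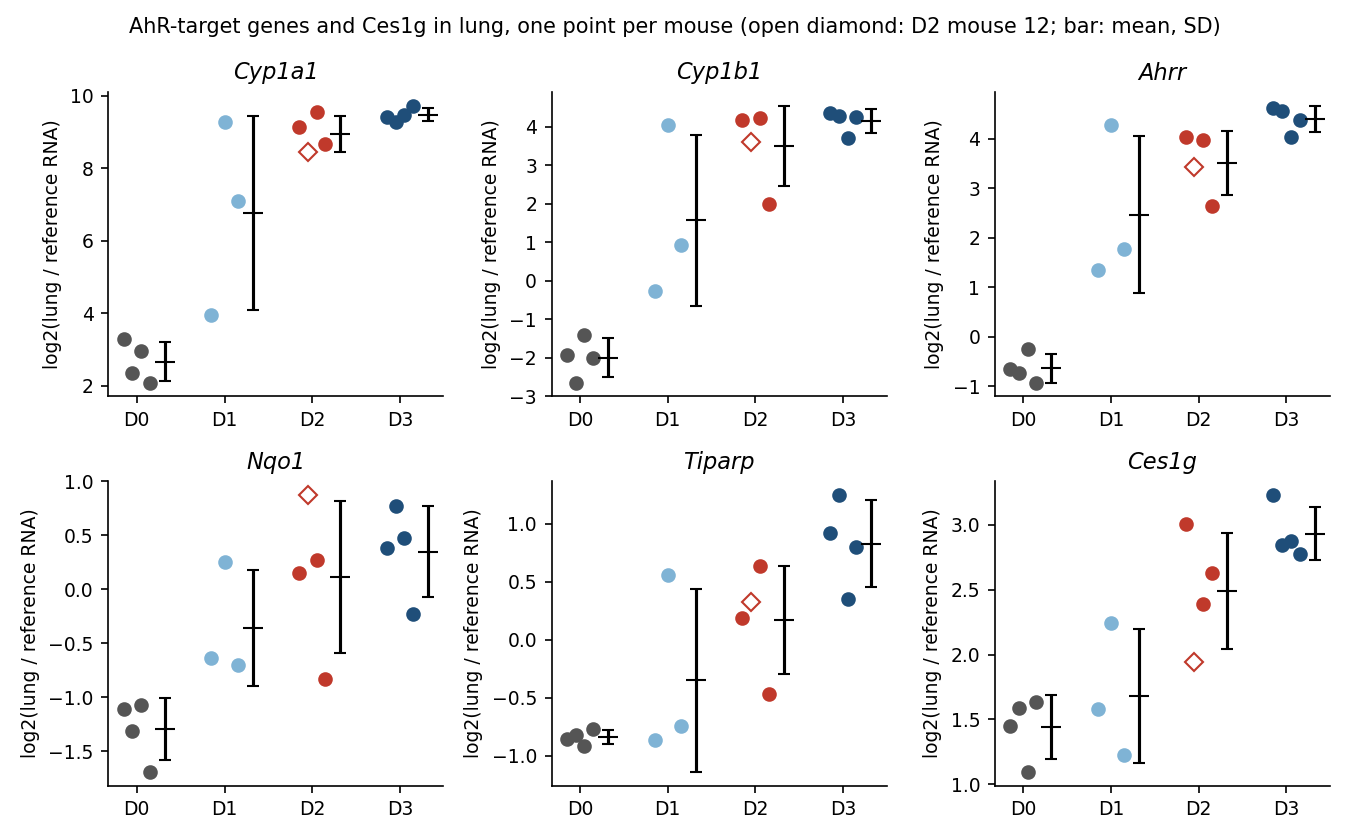
Log2 ratio of lung over reference RNA (vertical axes) for 5 AhR targets and the carboxylesterase Ces1g in each lung of the vehicle (D0), low (D1), medium (D2) and high (D3) dose groups. Points are mice, the open diamond is D2 mouse 12, and the bar beside each group is the mean with its SD. Cyp1a1 lay between 8.46 and 9.57 in the D2 lungs and between 2.09 and 3.29 in the D0 lungs.

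The receptor and its partners, the broader Nrf2 targets and the other detoxifying enzymes gave no calls. Among 11 tested genes for AhR, partners and coactivators, 4 changes were positive and 7 negative, with a median of -0.08, and of 0.00 without mouse 12. Ahr itself had a change of -0.44 ± 0.25 (SE), with an adjusted p of 0.72, and of -0.11 without mouse 12. Of 15 tested Nrf2 targets, Nqo1 not among them, 14 changes were positive with a median of 0.19, and 0.11 without mouse 12. Gclm, a subunit of the enzyme that limits glutathione synthesis, had a change of 0.38, Srxn1 of 0.33 and Me1 of 0.23, with adjusted p of 0.40, 0.62 and 0.63.

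In the list of other phase I enzymes, 10 of 20 changes were positive, the median was 0.01, or 0.09 without mouse 12, and the carboxylesterase Ces1g and the carbonyl reductase Cbr3 had all D2 lungs above all D0 lungs. The same was seen for 225 of the 14970 named genes. Ces1g read 1.45, 1.59, 1.64 and 1.096 in D0 mice 1, 2, 3 and 4 and 3.00, 1.94, 2.39 and 2.63 in D2 mice 11, 12, 13 and 15. Its change of 1.05 ± 0.22 (SE) had an adjusted p of 0.20, and without mouse 12 it was called, at 1.30 with an adjusted p of 0.026. Cbr3 had a change of 0.50 (adjusted p = 0.44) and the flavin monooxygenase Fmo1 of -0.38 (adjusted p = 0.35). Of 16 phase II enzymes 11 changes were positive, with a median of 0.13, or 0.05 without mouse 12. The widest separation in that list was for Gstp1, a glutathione transferase of many epithelia, with D0 values from -0.47 to 0.03 and D2 values from 0.26 to 0.75 and an adjusted p of 0.15.

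Among the genes that fell, Grp had the largest change. It encodes gastrin-releasing peptide, a hormone of pulmonary neuroendocrine cells. Its log2 ratios were 2.78, 2.13, 2.76 and 1.46 in D0 mice 1, 2, 3 and 4 and 0.37, 0.20, 0.23 and 0.66 in D2 mice 11, 12, 13 and 15. The groups did not overlap, and the probe was well above background in all D0 lungs but in only 1 D2 lung, so that the D2 level is close to the detection limit. The change was -1.92 ± 0.23 (SE), with an adjusted p of 0.026, and -1.89 without mouse 12. With the background-subtracted ratios of the scanner software it was -4.74 and not called (adjusted p = 0.28), so that the size of the fall is not fixed by these data. D1 and D3 lungs were as low, at 0.56 ± 0.33 (SD, n = 3) and 0.31 ± 0.31 (SD, n = 4). Of the 12 tested genes of the neuroendocrine list, Grp alone was called or lay wholly below the D0 lungs, 7 changes were positive, and the median was 0.01, or 0.06 without mouse 12. The next members by p were Calca, at 0.31 and with its other probe at -0.37, and Chgb, at -0.10.

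Slc5a12, a sodium-coupled transporter of lactate and other monocarboxylates, fell by 0.98 on the log2 scale (SE 0.13, adjusted p = 0.026). It read 1.69, 1.28, 1.40 and 0.85 in D0 mice 1, 2, 3 and 4 and 0.36, 0.19, -0.10 and 0.84 in D2 mice 11, 12, 13 and 15, and its second probe had a change of -1.11 without passing the test. The highest D2 value, in mouse 15, was just below the lowest D0 value, and the probe was well above background in only 1 D2 lung. With the ratios of the scanner software its change was -2.54, without a call. Map2, which binds microtubules in neurons, fell by 0.76 (adjusted p = 0.026), and Gm14207, a predicted gene, fell by 1.11 (adjusted p = 0.024). For both, the D0 and D2 lungs overlapped, with mouse 15 inside the D0 range, while each slide gave a difference of the same sign, from -0.94 to -0.62 for Map2 and from -1.25 to -0.88 for Gm14207. The other probe of Map2 had a change of -0.30, with an adjusted p of 0.70, and with the ratios of the scanner software its change was -1.14, without a call.

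Another 5 genes were called only in the fit without mouse 12. Car14, a membrane carbonic anhydrase, fell by 1.69 without that lung, against a change of -1.29 with it. It read 2.02, 2.48, 2.83 and 2.49 in D0 mice 1, 2, 3 and 4, and 0.91, 0.40 and 1.09 in D2 mice 11, 13 and 15 against 2.27 in mouse 12. S1pr5, a sphingosine phosphate receptor of natural killer cells, had a change of -1.098 without and -0.72 with mouse 12, and of -1.77 with the ratios of the scanner software. Chac1, a stress-induced enzyme that breaks down glutathione, had changes of -0.99 and -0.47, and Nhlrc2, a protein with thioredoxin-like and NHL repeat domains, of 1.01 and 0.55. For S1pr5, Chac1 and Nhlrc2 the difference within the slide of mouse 12 had the opposite sign to that of the other 3 slides. Mouse 12 read -1.29 for Chac1 against -3.29 to -2.81 in the other D2 lungs, and 0.32 for Nhlrc2 against 1.86 to 2.28.

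**Figure D3:**
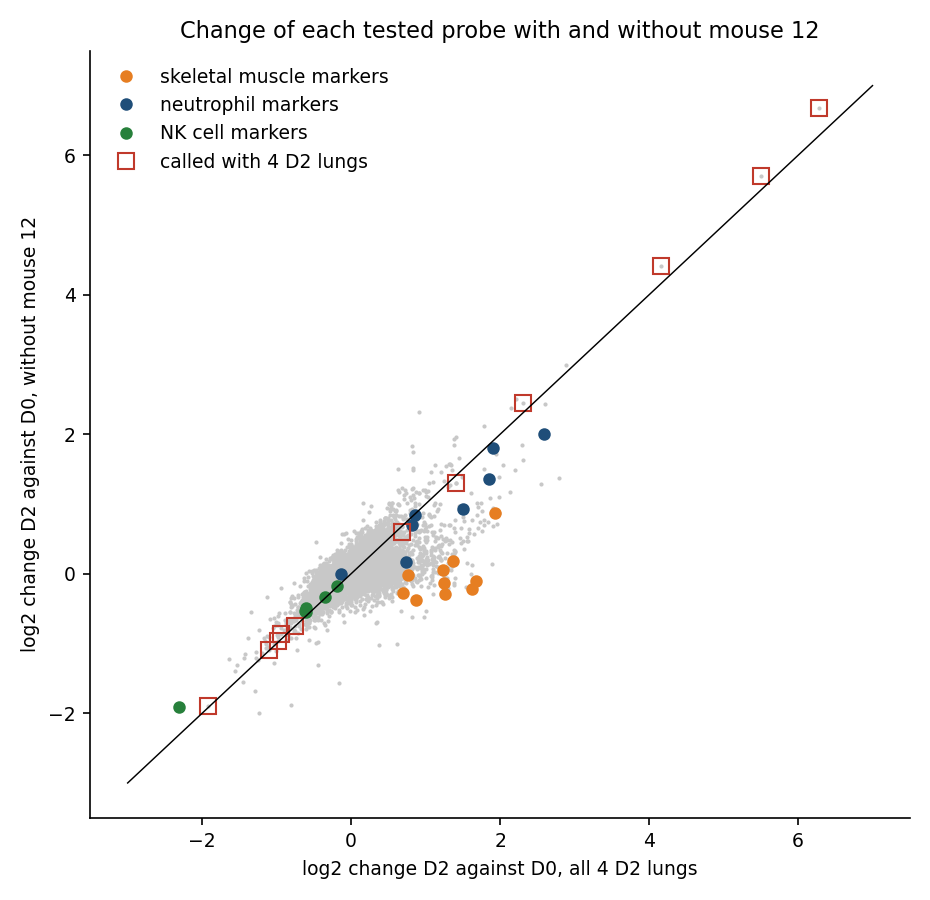
Log2 change of D2 against D0 for each tested probe with all 4 D2 lungs (horizontal axis) and without mouse 12 (vertical axis), with a line of equality. Orange, blue and green points are skeletal muscle, neutrophil and natural killer (NK) cell markers, and red squares the 11 called probes. The called probes lie along the line, while the muscle markers have a median of 1.26 with mouse 12 and -0.12 without it.

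Genes of neutrophils, the granulocytes that reach the lung early in inflammation, had mostly positive changes that did not pass the test. Of 8 tested neutrophil markers 0 were called, 7 changes were positive, 3 had all D2 lungs above all D0 lungs, and the median change was 1.18, against -0.01 over all named genes. Of all 14970 named genes 7218 changes were positive, and 225 genes had all D2 lungs above all D0 lungs. The neutrophil score was -0.81, -0.27, -0.47 and -0.50 in D0 mice 1, 2, 3 and 4 and 0.36, 1.66, 0.87 and 0.13 in D2 mice 11, 12, 13 and 15. The groups did not overlap, and mouse 12 was the highest. Without mouse 12 all 8 changes were positive, with the receptor Csf3r at 0.00, and the median was 0.89. D1 lungs ranged from -0.34 to 0.48 and D3 lungs from -0.26 to 0.13.

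S100a8, one chain of the calcium-binding complex calprotectin, read 0.17, 1.22, 1.09 and 1.82 in D0 mice 1, 2, 3 and 4 and 2.42, 5.69, 3.98 and 2.54 in D2 mice 11, 12, 13 and 15. Its change of 2.58 ± 0.53 (SE) had an adjusted p of 0.19 and was 2.00 without mouse 12. Its partner S100a9 had a change of 0.82 and the resistin-like Retnlg of 1.86, both with no overlap of the groups, and that of Retnlg was 0.70 with the ratios of the scanner software. The largest positive changes among genes with no overlap held others of this kind, the collagenase Mmp8 at 2.30, the stefin Stfa2l1 at 2.14 and the decoy receptor Il1r2 at 1.99, with adjusted p of 0.29, 0.47 and 0.31. These 3 changes were 1.84, 1.17 and 1.38 without mouse 12, whose values of 4.93, 5.78 and 4.76 were far above those of the other D2 lungs, at most 3.02, 2.27 and 2.03. All 4 tested Stfa genes, a near-identical family chosen after its values were seen, had positive changes, from 0.80 to 2.14, and from 0.01 to 1.17 without mouse 12.

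Among genes of natural killer (NK) cells and cytotoxic lymphocytes, Klra7 was the only call with all 4 D2 lungs in the fit. S1pr5, described above, was called only without mouse 12. Klra7, an NK receptor of the Ly49 family, was called and fell by 0.95 (SE 0.13, adjusted p = 0.046), from 0.74, 0.49, 1.47 and 0.53 in D0 mice 1, 2, 3 and 4 to -0.10, -0.49, -0.16 and 0.21 in D2 mice 11, 12, 13 and 15. Without mouse 12 its change was -0.87, with an adjusted p of 0.075, and with the ratios of the scanner software it was -2.32, without a call. Klra7 was called in 0 of the 8 fits that each left out 1 lung. The probe was well above background in all D0 lungs but in only 2 D2 lungs, so that the D2 level is close to the detection limit. Of 6 tested NK markers 0 were called, all 6 changes were negative with and without mouse 12, 2 had all D2 lungs below all D0 lungs, and the median was -0.61, or -0.52 without mouse 12. Over all 14970 named genes 7752 changes were negative, and 192 genes had all D2 lungs below all D0 lungs. The NK score was 0.78, 0.36, 1.22 and 0.20 in D0 mice 1, 2, 3 and 4 and 0.10, -0.62, -0.35 and 0.31 in D2 mice 11, 12, 13 and 15, so that the groups overlapped through mouse 15.

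Gzma, the granule protease of cytotoxic cells, had the largest negative change of all named genes tested. It read 5.51, 4.75, 5.73 and 4.68 in D0 mice 1, 2, 3 and 4 and 3.58, 1.20, 2.13 and 4.49 in D2 mice 11, 12, 13 and 15. Its change of -2.32 ± 0.46 (SE) had an adjusted p of 0.18. The chemokine Ccl5 had a change of -1.64, and the Ly49 genes Klra16 and Klra4 of -1.53 and -1.24, all 3 with no overlap of the groups and with adjusted p of 0.19, 0.10 and 0.10. In the Ly49 family, chosen after its values were seen, all 7 tested genes had negative changes, from -1.53 to -0.06. Of these 3 had no overlap, against 192 downward among all 14970 named genes. The Ly49 genes are close copies that differ between mouse strains, and other probes of Klra7 and Klra16 gave -0.51, -0.49 and -0.45, so the readings of single members are uncertain. The change of Klra16 was -0.82 as the mean of its probes, and that of Klra4 -2.44 with the ratios of the scanner software. The D1 and D3 means were close to the D2 mean for Gzma (2.73 and 3.12 against 2.85) and for Klra16 (-1.35 and -1.24 against -1.46), with D0 at 5.17 and 0.07. T cell markers had a median change of -0.06 over 7 genes and B cell markers of -0.03 over 8, or 0.13 and 0.20 without mouse 12.

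**Figure D4:**
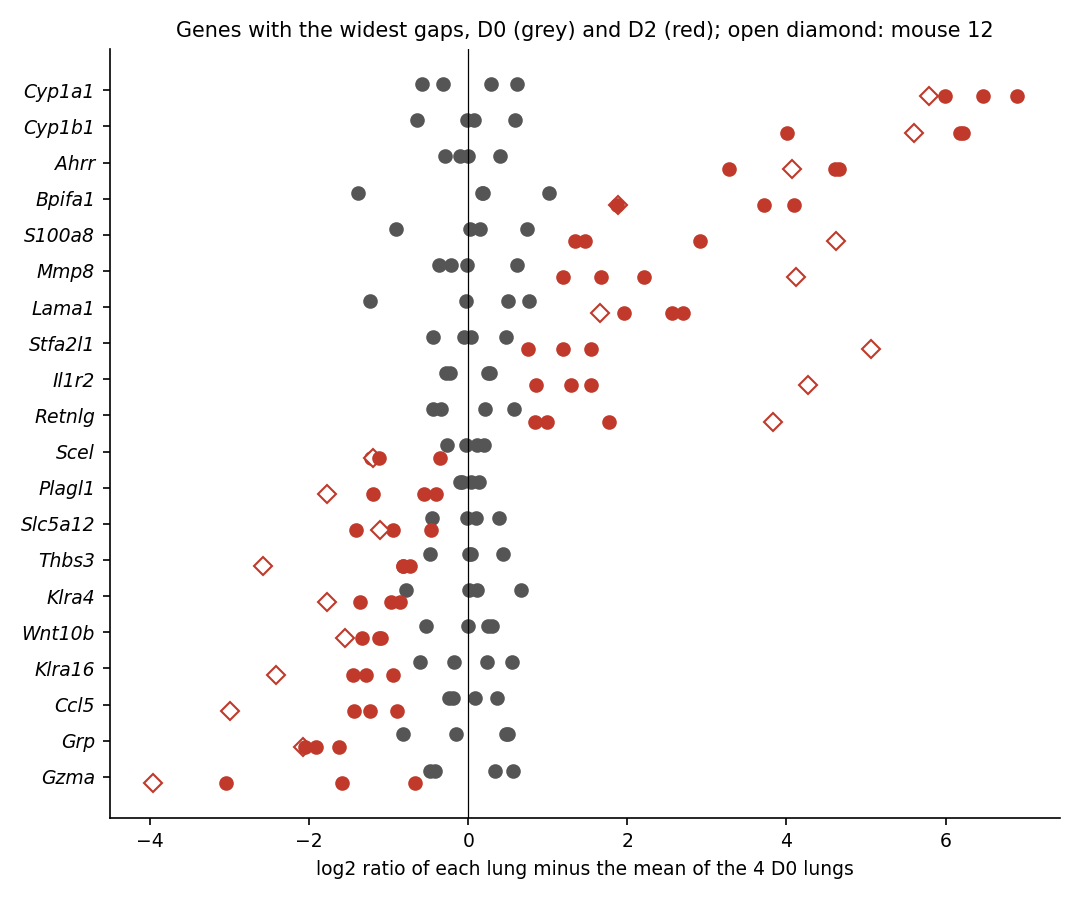
Log2 ratio of each lung minus the mean of the 4 D0 lungs (horizontal axis) for the 10 genes with the largest positive and the 10 with the largest negative change among those with an unadjusted p of at most 0.01 and no overlap between groups. Grey points are D0 lungs, red points D2 lungs and the open diamond mouse 12. Mouse 12 is the D2 lung farthest from D0 for S100a8, Mmp8, Stfa2l1, Il1r2, Retnlg, Thbs3, Ccl5, Gzma, Klra16, Klra4, Wnt10b, Plagl1 and Grp and the nearest to D0 for Cyp1a1 and Lama1, and the Cyp1 genes differ by more than the neutrophil genes in the other 3 lungs.

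The other genes with wide gaps had varied roles. Bpifa1, a secreted defence protein of the upper airway, read 2.71, 1.87, 1.88 and 0.31 in D0 mice 1, 2, 3 and 4 and 5.41, 3.57, 3.57 and 5.78 in D2 mice 11, 12, 13 and 15, a change of 2.89 ± 0.87 (SE), but of 1.07 with the ratios of the scanner software. Lama1, a laminin chain of basement membranes, had a change of 2.22 ± 0.44 (SE), from between 1.41 and 3.41 to between 4.30 and 5.33, and D1 and D3 means were 4.29 and 4.64. Its adjusted p was 0.18 with mouse 12 and 0.092 without, and its change was 0.86 with the ratios of the scanner software. Downward, the signalling protein Wnt10b had a change of -1.28, the matrix protein Thbs3 of -1.24, the zinc finger factor Plagl1 of -0.98 and the epithelial protein sciellin (Scel) of -0.98. None of these passed the test, and the change of Thbs3 was -0.80 without mouse 12. The other probes of Plagl1 gave -1.05, -0.07 and -0.20, and the mean over its probes was -0.58. The change of Wnt10b was -2.39 with the ratios of the scanner software.

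Genes of the DNA damage response, apoptosis and proliferation gave no calls, with list medians from -0.02 to 0.18. Over all 14970 named genes 7218 changes were positive, and the median was -0.01. Of 19 tested p53 targets 0 were called, 14 changes were positive, and the median was 0.18, or 0.10 without mouse 12. Gadd45a, which acts in growth arrest, had a change of 0.26 and Gdf15 of 0.46, while the apoptosis promoter Pmaip1 had one of -0.83 ± 0.16 (SE), with D0 values from 0.19 to 0.52, D2 values from -0.96 to 0.09 and an adjusted p of 0.15. Nucleotide excision repair and adduct bypass genes had a median of -0.02 over 22, and ranged from -0.26 to 0.19, with the polymerase subunit Rev3l at -0.26. The 16 apoptosis genes had a median of 0.03, or 0.01 without mouse 12, with cytochrome c (Cycs) at 0.58, or 0.25 without mouse 12. Of 22 proliferation genes 18 changes were positive and the median was 0.16, or 0.08 without mouse 12. Rrm2, a subunit of the enzyme that makes deoxyribonucleotides, had a change of 0.49 and had no overlap between groups, with mouse 12 the highest.

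Circadian clock genes varied within both groups, and 0 of 20 were called, with a median of 0.14. Dbp, a clock output factor, had a change of 1.28 ± 0.50 (SE, adjusted p = 0.62), from -0.03, -1.62, -1.43 and 0.33 in D0 mice 1, 2, 3 and 4 to 1.73, -0.07, 0.52 and 0.19 in D2 mice 11, 12, 13 and 15. The groups overlapped, and the D0 lungs themselves spanned more than the change. Nr1d2 and Hlf had changes of 0.71 and 0.70. For Hlf the groups did not overlap, at 0.48 to 1.01 in D0 and 1.08 to 2.12 in D2 lungs (adjusted p = 0.42).

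Of 14 tested inflammatory cytokine and acute phase genes 0 were called and 11 changes were positive, but without mouse 12 only 5 were, and the median went from 0.15 to -0.14. Il1b, a cytokine of activated myeloid cells, had a change of 1.08, or 0.81 without mouse 12, with an adjusted p of 0.35. Interferon-stimulated genes had a median of -0.17 over 16, or -0.01 without mouse 12, with Ifi44 at -1.04, or -1.68 with the ratios of the scanner software. The 7 MHC class II genes had a median of 0.09, or 0.35 without mouse 12, and Ciita, which regulates the others of the list, had the highest change at 0.72, or 1.13 without mouse 12. Leaving out single lungs gave Ciita changes between 0.30 and 1.13. Retinoid metabolism (13 genes) and cholesterol synthesis (19 genes) had medians of 0.02 and -0.05 and no calls.

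Markers of the lung's own epithelium gave no call, and their medians were nearer to 0 once mouse 12 was left out. The median change of ciliated cell markers was -0.38 over 8 genes, or -0.15 without mouse 12, and that of alveolar type 1 markers -0.35 over 6, or -0.14. For Emp2 and Pdpn of the type 1 list all D2 lungs lay below all D0 lungs, at changes of -0.62 and -0.39. The same was seen for 192 of the 14970 named genes. Club cell markers had a median of -0.13 over 4, or -0.00 without mouse 12, with Scgb3a1 at 1.20. Red cell precursor scores did not overlap, at -0.80 to -0.04 in D0 and 0.08 to 0.56 in D2 lungs over 3 genes. All 10 heart muscle markers had positive changes with a median of 0.63, or 0.84 without mouse 12, with D0 scores from -1.51 to 0.61 and D2 scores from -1.02 to 1.37.

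The high dose was set against the medium dose to see whether doubling the dose changed the lung further. limma called 0 of 32697 probes (0%) at D3 against D2, with 3866 at an unadjusted p under 0.05, against 2420 at D2 against D0. That number was 1980 without D3 mouse 17 and 5087 without D2 mouse 15. The 0 calls therefore do not show that the 2 doses had the same effect. Without mouse 12, 1 probe was called, for the transcription factor Runx1, at 1.12 higher in D3. The D3 minus D2 difference was 0.52 ± 0.77 (SE) for Cyp1a1, 0.64 ± 0.72 for Cyp1b1, 0.88 ± 0.48 for Ahrr and 0.66 ± 0.26 for Tiparp, none past the threshold. The D3 lungs lay closer together than the D2 lungs for Cyp1a1 (SD 0.18 against 0.50), Cyp1b1 (0.30 against 1.04) and Ahrr (0.26 against 0.64).

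The D2 change in lung was compared with the D2 change in liver and forestomach of the same mice, except that D2 liver had 3 mice, to see where the lung response differed. The difference of the changes was called for 7 of 26070 probes against liver (0.0269%, of which 0.0153% higher and 0.0115% lower in lung) and for 16 of 24504 against forestomach (0.0653%, of which 0.0531% higher and 0.0122% lower). With mouse as a random block the counts were also 7 and 16. Against forestomach, 2 AhR targets were among the calls. The fitted change of Ahrr was 4.15 in lung and 0.54 in forestomach, a difference of 3.61 ± 0.56 (SE, adjusted p = 0.012), and that of Cyp1b1 5.50 and 0.83, a difference of 4.67 ± 0.85 (SE, adjusted p = 0.026). Ahrr was well above background in 0 of 4 D0 lungs and 2 of 4 D0 forestomachs, so that its fitted changes rest on signals at the detection limit and their difference has no exact size. For Cyp1a1, above background in 1 of 4 D0 forestomachs, the difference was 4.28 ± 1.29 (SE) and did not pass the test (adjusted p = 0.13). Of the 16 calls, 11 had a larger change in forestomach than in lung, such as the keratin-associated gene Krtap10-4 at -2.04 in forestomach and -0.01 in lung. Without D2 lung mouse 12 the count against forestomach was 4, and leaving out other arrays in turn gave 0 to 592.

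Against liver, none of the AhR targets differed past the threshold. The fitted change of Cyp1a1 was 6.28 in lung and 5.47 in liver, a difference of 0.82 ± 1.33 (SE, adjusted p = 0.97), and that of Cyp1b1 5.50 and 3.03, a difference of 2.47 ± 0.87 (SE, adjusted p = 0.53). Cyp1a1, Cyp1b1 and Ahrr were well above background in 0 of the 4 D0 livers, so that their liver changes are measured from signals at the detection limit, and neither a difference between the tissues nor its absence can be read from them. Grp, Map2, Klra7 and the unnamed probe, called in lung, were not tested against liver. Among the other probes called in lung, the change of Slc5a12 differed from that in liver, at -0.98 and 0.20, with an adjusted p of 0.016. It was well above background in 0 of the 4 D0 and 1 of the 3 D2 livers, so that its liver change is at the detection limit. The other 6 calls had larger changes in liver than in lung. Without D2 lung mouse 12 the count against liver was 11, and leaving out other arrays in turn gave 2 to 149.

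**Figure D5:**
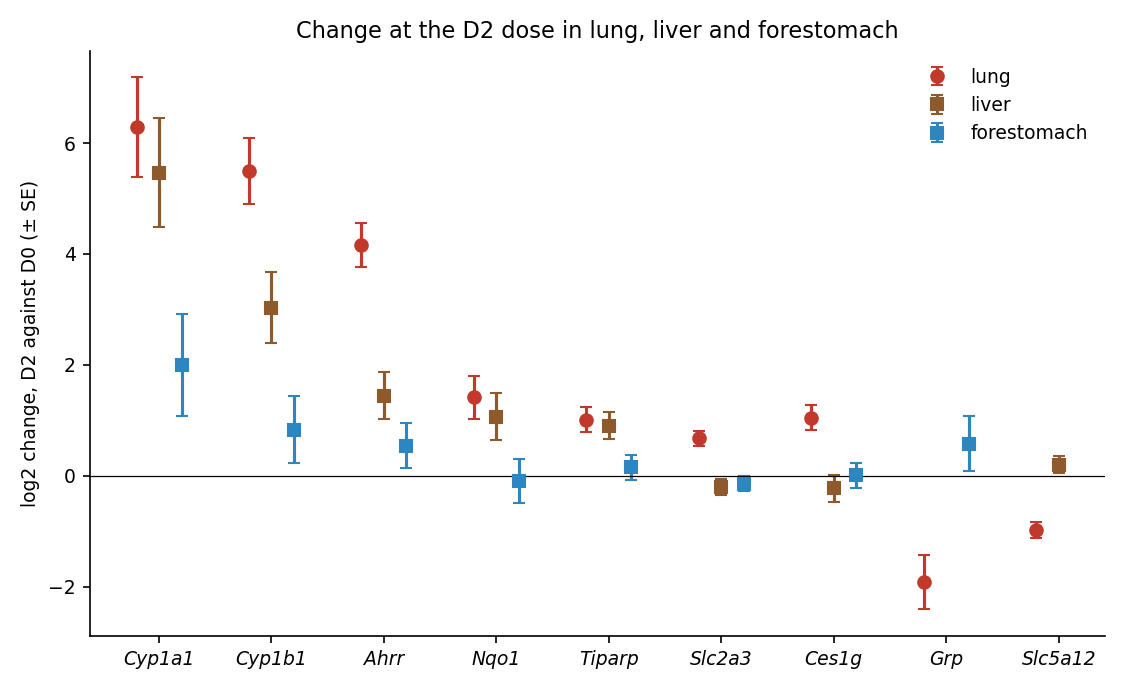
Log2 change of D2 against D0 (vertical axis, with its SE) in lung, liver and forestomach for AhR targets and other genes described in lung, from the fit of all 42 arrays. A tissue is not drawn where the probe was too dim in it. The lung change of Cyp1b1, 5.50, compares with 0.83 in forestomach. Ahrr in lung and Cyp1a1, Cyp1b1, Ahrr and Slc5a12 in liver were not well above background in any D0 sample, and their points are fitted values.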

How the data were processed

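Lung RNA (Cy5) and a universal mouse reference (Cy3) were hybridised to 2-colour Agilent arrays, with no dye swap. The authors deposited scanner files with median linear median intensity per channel and the scanner software's log10 ratio (Agilent Feature Extraction 10.7.3.1 for lung), and processed log2 ratios made by LOWESS. Groups came from the labels. The medians were used without background subtraction and loess-normalised per array with limma 3.58.1 (R 4.3.3). Control spots and outlier flags were left out and spots of a probe averaged, giving 55681 probes, of which 26413 were named through RefSeq accessions (GRCm38.p6). A probe was kept where well above background on at least 3 of the lung arrays. The fit held all 15 lungs with dose group and slide, and p-values (two-sided) were adjusted by Benjamini-Hochberg over all kept probes. It replaced the authors' MAANOVA test, at the same thresholds. Tissue differences were contrasts in a fit of all 42 arrays. Genes were read by their brightest probe. The number of arrays limits the precision, and a fold bound from the sample channel is open to dye bias. Mice are separate animals. The fit was tested on simulated data.

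Named genes were those called with or without mouse 12, the AhR targets, the 10 largest changes per direction with an unadjusted p of at most 0.01 and no overlap, the 3 members of each list with the lowest p, and genes called between tissues. The list members, lists and tests were chosen with earlier results of these data known. Lung values correlated with the authors' ratios at r = 0.997 or more, but liver values at between -0.0030 and 0.00034, so the authors' ratios were used for lung alone. Alternatives were the slide block, background correction, scaling, dim-probe filter, authors' ratios and leaving out arrays.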

Additional observations from a re-analysis of the deposited data

Results flagged for a closer look

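In 15 of 208 groups of 4 lungs examined (7.21%), the gap from the extreme lung to the next was above Dixon's 95% critical value for 4 values, where chance gives about 5%. In D2 mouse 12 these were the marker scores of skeletal muscle (5.26), stratified epithelium (3.34) and plasma cells (-0.81), and the levels of Thbs3 (0.56), Crebbp (0.074), Srxn1 (0.10), Rrm2 (-3.72), Nos2 (-1.27) and Crabp2 (0.44). For Crabp2, a carrier of retinoic acid, the other D2 lungs read -1.62 to -1.48. In the other D2 lungs they were Scel in mouse 15 (3.94, against 3.08 to 3.17), Calca in mouse 13 (1.57, against 2.58 to 2.63) and the single tested liver marker in mouse 15 (0.48). In D0 lungs they were Cyp2s1 in mouse 1 (3.84), Sult1d1 in mouse 4 (0.71) and the white fat score in mouse 4 (-1.002).

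The D2 change in lung minus that in forestomach was called for Ahrr (3.61), Cyp1b1 (4.67), the proton pump subunit Atp6v0a4 (2.20), Krtap10-4 (2.03), Tmem86a (1.44), the sterol reductase Tm7sf2 (1.42), Snrnp25 (1.07), Dpp3 (0.83) and Crebzf (-1.03), and for probes without a gene name, A_55_P2004099 (2.20), A_30_P01020149 (1.21), A_55_P2081437 (1.20), A_66_P124420 (1.16), A_30_P01031593 (0.98), A_52_P223508 (-1.06) and A_30_P01031524 (-0.96). The lung change was 2.14 for A_55_P2004099 and -0.06 in forestomach. The lung change minus that in liver was called for Moxd1 (5.15), Slc13a2 (3.03), the fatty acid transporter Cd36 (-2.99), Insl6 (-1.90) and Slc5a12 (-1.18), and for A_30_P01031082 (0.88) and A_55_P2228918 (0.84). The change of Cd36 was -0.51 in lung and 2.48 in liver.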

How the results depend on the processing

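The count of 11 calls in D2 against D0 lungs was 5 with no slide block, 3 with only the D0 and D2 lungs in the fit, 1 when the ratios of the scanner were taken, 12 with slide as a random block (7 of them among the 11), and between 11 and 12 under the other settings for probes that kept all arrays. With the mean over all probes of a gene, 8 of 14970 genes were called, 5 higher and 3 lower. Leaving out single lungs gave 0 to 15. The 0 calls of D3 against D2 became 0 to 1. The 7 calls between lung and liver were 4 with no slide block, 12 with no filter on dim probes and 2 to 149 when single arrays were left out. The 16 calls between lung and forestomach were 68 with slide as a random block and 0 to 592 when single arrays were left out. The cause was not tested. The authors' table was not run between tissues, because its liver columns did not follow the scanner values of the same probes. Of 1436 values of named genes under an alternative, 1331 kept direction and side of the threshold, 92 lost and 6 gained a call and 7 turned sign. Those were H2-DMb1 with the scanner's ratios (-0.032), Calca as the mean of its probes (-0.026), and, when single lungs were left out, H2-DMb1 (-0.085 to 0.35), H2-DMa (-0.042 to 0.64) and Cyp2s1 (-0.27 to 0.031). When single lungs were left out, the medians of 7 of 16 gene lists turned sign, among them MHC class II (-0.085 to 0.35) and inflammatory cytokines (-0.14 to 0.23), while AhR targets ranged from 0.38 to 0.95 and p53 targets from 0.099 to 0.21. With the scanner's ratios Cyp1a1 had a change of 4.05 without a call. The files used here hold no mean signal, so normexp was run on medians. Counts without mouse 12 of lungs that did not overlap were added after seeing the data. No paired analysis was possible because D0 and D2 lungs share no mouse numbers, and slide, which paired them on the array, was the block of the reported fit. Dim probes such as Grp in D2 limit the size of downward changes, and those such as Ahrr in D0 the size of upward changes.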
